A study of Mus musculus with 8 samples.

Results

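The genes described here build and run the vesicles that carry proteins between the endoplasmic reticulum (ER) and the Golgi. They are 54 genes of the COPI coat, the COPII coat and its assembly, p24 cargo adaptors, cargo and retrieval receptors, Arf GTPases and their regulators, tethers with Golgi matrix proteins, and SNAREs, chosen by name for their roles, with earlier results of these data known. The array annotation gave each of the 54 genes at least 1 probe set of its own, 114 in all. Of these, 102 probe sets of 53 genes were retained, among 24481 retained probe sets and 11924 genes with a retained probe set in the series. A probe set was retained where its third-highest intensity over the 8 samples was at least 10. The only own probe set of Tmed2, a p24 protein, lay between 9.48 and 9.85 in the 8 samples and was left out.

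Islet RNA was measured in male C57BL/6J mice weaned at 4 weeks of age to a regular rodent chow (NC, 4 kcal% fat) or a high fat diet (HF, 45 kcal% fat). The 4 NC samples (NC1, NC2, NC4 and NC5) and the 4 HF samples (HF21, HF22, HF23 and HF24) were each 1 array of the islets of 2 pooled mice, so that n counts pools. Time on diet is 12 weeks in the labels and 14 weeks in the methods, and mice of both diets carry the natural deletion in Nnt of this strain. Values are GCRMA intensities, which are adjusted for background and normalized across arrays, and median intensity was 13.0 to 13.8 over all probe sets of a sample. In lists of 4 values, the samples are in the order named above. The labelled tissue showed in its hormone genes, since Ins2 (insulin) read 67032 to 74310.4 and Gcg (glucagon) 82128 to 88297 over the 8 samples. Acinar enzyme genes were as bright, with Cela3b at 73420 to 95109, so the samples also held exocrine RNA.

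As background, secretory proteins leave the ER in vesicles that the GTPase SAR1 and the COPII coat shape, and cargo receptors connect soluble cargo to that coat. Tethers and SNAREs dock and fuse the vesicles at the Golgi. The COPI coat, recruited by ARF1, carries receptors and escaped ER proteins back, and KDEL receptors recognise those proteins by their C-terminal signal. Beta cells send large amounts of proinsulin through this route.

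Transport genes were slightly and broadly higher in HF islets on the scale of the deposited values, though not relative to beta cell markers, as given below. Of 102 retained probe sets, 14 rose in HF, 0 fell and 88 did not pass the test (limma, adjusted p under 0.05 over all retained probe sets). That is 13.7% of the members' probe sets called higher, where 2.14% of all retained probe sets were called higher and 4.39% lower. The 14 probe sets belong to 11 genes, which are Copz2, Arcn1, Sar1a, Tmed3, Lman1, Kdelr1, Kdelr2, Kdelr3, Surf4, Yipf5 and Gosr2. The sizes were small, with a median log2 fold change of 0.15 over the members' probe sets against 0.02 over all, and a range of -0.23 to 1.30. Log2 fold changes were above 0 for 91 of the 102 probe sets (89.2%), against 55.9% of all. No member was both called and at least 1.5-fold higher, a pair of criteria that 0.686% of all retained probe sets met.

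With each gene represented by its brightest retained probe set, 6 of 53 genes rose, 0 fell and 47 did not pass (11.3% called higher, against 1.92% higher and 6.65% lower over all 11924 genes). The 6 genes were Copz2, Tmed3, Lman1, Kdelr1, Kdelr3 and Yipf5. The median log2 fold change was 0.13 over these 53 genes and -0.00014 over all genes, and it was above 0 for 47 genes. In 17 of the 53 genes (32.1%) all 4 HF samples lay above all 4 NC samples, against 5.9% of all genes. Counted by probe set, this held for 32 of 102 (31.4%, against 7.09% of all). These shares were not matched for intensity or for spread within a diet, which was smaller in the members, as given below. The opposite order, HF below NC throughout, held for 1 member probe set, of Arf3, against 8.11% of all. That probe set was also the only one of the members lower at an unadjusted p under 0.05 (limma), which 11% of all retained probe sets were. An unpaired t-test on the same values found 1 lower before and 0 after adjustment.

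**Figure D1:**
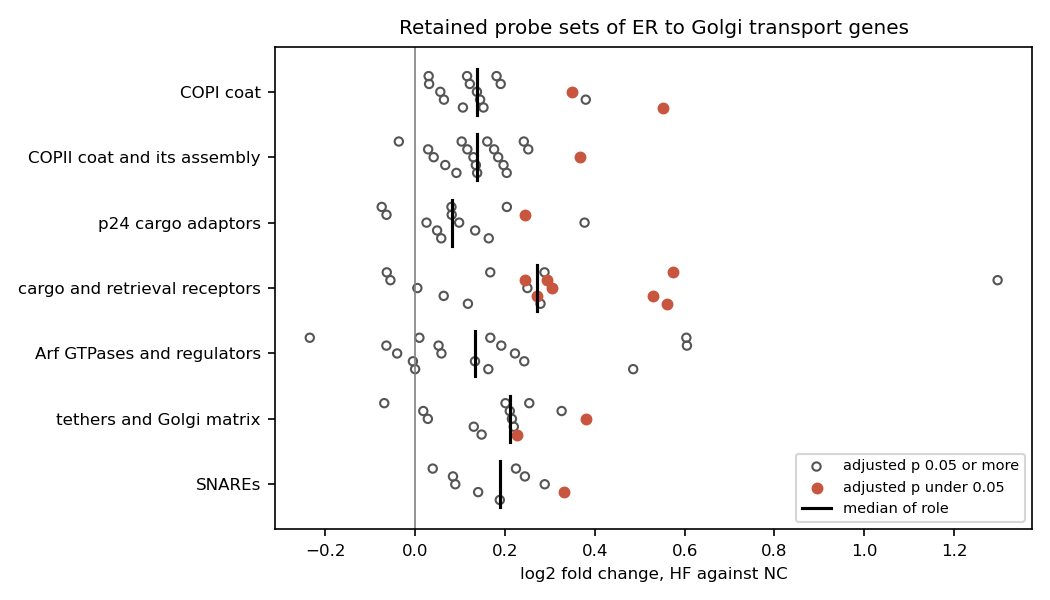
Log2 fold change of HF against NC (x axis) for the 102 retained probe sets of ER to Golgi transport genes, by role (y axis), with filled points for the 14 at an adjusted p under 0.05, open points for the other 88 and a bar at each role's median. Most points lie to the right of 0, and 7 of the 14 filled points are cargo and retrieval receptors.

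The number of calls fell when any 1 sample was left out. Of the member probe sets, 4 were called higher without NC1, 7 without NC2, 5 without NC4, 5 without NC5, 3 without HF21, 6 without HF22, 8 without HF23 and 3 without HF24. Calls higher over all retained probe sets fell too, from 525 to between 226 (without HF24) and 419 (without HF23). The calls of Copz2, Sar1a and Arcn1 were kept in each of these 8 fits. The median of the member genes stayed between 0.10 and 0.15 on the log2 scale.

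Beta cell markers were also slightly higher in HF. Against the NC mean, the mean log2 difference of the members was 0.190, 0.073, 0.124 and 0.149 in the HF samples. That of the markers was 0.192, 0.065, 0.096 and 0.162, so the HF samples ranked alike in both lists. The NC samples ranked differently and over a smaller range. There the members were highest in NC2 (0.061) and the markers in NC1 (0.035, and 0.0027 in NC2). Of 10 retained markers, 9 had log2 fold changes above 0 with a median of 0.11, and 1 was called, Pcsk1 (a proinsulin-processing convertase), at a log2 fold change of 0.34 (adjusted p = 0.0252 over genes). Their summed intensity was 258257 to 264265 in NC and 273807 to 288284 in HF, with no overlap. Fibroblast markers fell in 10 of 10 genes, from a summed 13808 to 19668 in NC to 3063 to 5261 in HF, and leukocyte markers in 5 of 7, endothelial markers in 3 of 6, B and plasma cell markers in 2 of 4 and Schwann cell markers in 2 of 3. Of alpha cell markers 1 of 3 fell, of delta and PP cell markers 0 of 3 (limma, 2 lower at an unadjusted p under 0.05) and of duct markers 1 of 4. Acinar markers, which belong to another strongly secretory cell, passed in 0 of 12 genes (limma, 1 higher at an unadjusted p under 0.05), and their summed intensity overlapped, with 441085 to 580636 in NC and 480176 to 564818 in HF. In bulk islets, fewer cells of a type and less RNA per cell cannot be told apart, and the part of cell makeup in the members' rise was not tested.

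The direction of the members depends on the scale they are read against. Where samples were scaled to equal mean beta cell markers, the median of all genes moved to -0.13, that of the member genes was 0.0014 and 28 of 53 were above 0. This scaling shifts every gene of an array alike, so it cannot change the distance between members and all genes, 0.13. On that scale 4 member probe sets were called higher and 1 lower, with 206 higher and 2388 lower over all (7.94% of calls higher, 32.8% in the values as deposited). The 4 were Copz2 at 0.42 (adjusted p = 0.0181), Sar1a at 0.24 (adjusted p = 0.0469), Kdelr3 at 0.40 (adjusted p = 0.0354) and 1 probe set of Lman1 at 0.44 (adjusted p = 0.0473), and the lower one was of Arf3.

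**Figure D2:**
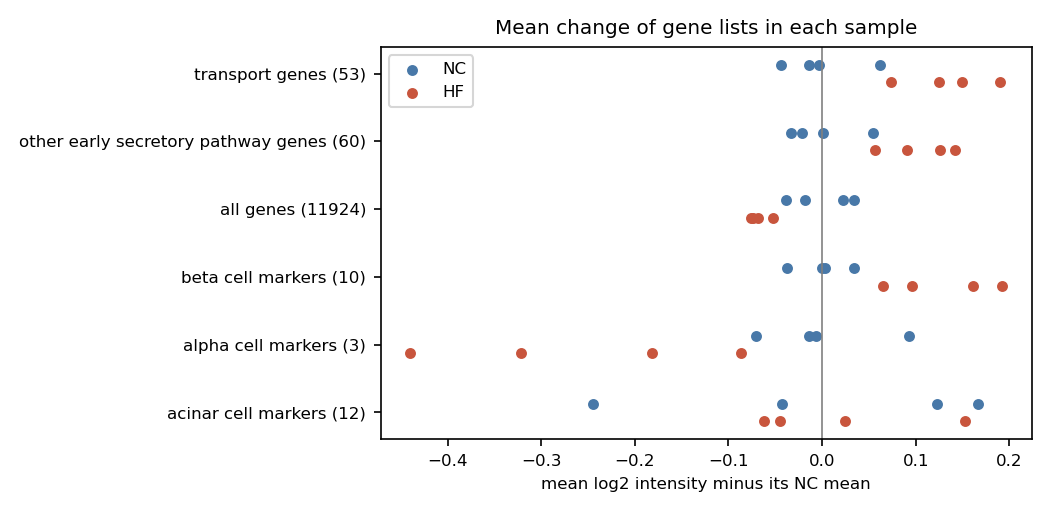
Mean log2 intensity of each gene list in each sample, minus its mean over the NC samples (x axis), for 53 transport genes, 60 other early secretory pathway genes, all 11924 genes and 3 lists of cell markers (y axis), 1 point per sample. The transport genes of the HF samples lie 0.073 to 0.19 above the NC mean and the beta cell markers 0.065 to 0.19.

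Promoter sequences are shown because 8 of the members share a short element. RefSeq (GRCm38.p6) listed promoters of 300 bases, from 250 before to 50 after the start site, for 47 of the 54 members, and none for Arcn1, Kdelr2, Lman1, Tmed2, Tmed7, Trappc4 and Yipf5. They were searched on both strands for elements that the ATF6 and XBP1 factors of the unfolded protein response are known to read, and for the cyclic AMP element. No test was made, and promoters were not matched for base composition. The core TGACGTGG of the unfolded protein response element was in the promoters of 8 of 47 members (17.0%), against 1.11% of 9659 genes with a retained probe set and a listed promoter, and 0.676% of all 32851 promoters. The letters CCAAT and CCACG 9 bases apart (0.119% of all promoters), and ATTGG and CCACG 1 base apart (0.0365%), were in 0 of the 47. The cyclic AMP element TGACGTCA, which shares its first letters with the core, was in 2 of the 47 members (4.26%), Cope and Gosr2. This share is near the 3.66% of the 9659 genes, and 1.79% of all promoters held the element. On the opposite strand the core reads CCACGTCA, which starts with the CCACG that ends both other elements. In the lines below, each of at most 30 bases and written 5′ to 3′ on the strand of its gene, capitals mark the core in either orientation.
Copb1, chr7:114254690-114254719 (-): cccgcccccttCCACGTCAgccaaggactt
Copb2, chr9:98563713-98563742 (+): tcccggaagttCCACGTCAgtgggttggcc
Sec23a, chr12:59011993-59012022 (-): ctcctccccttTGACGTGGcagaggcggca
Sec24d, chr3:123267459-123267488 (+): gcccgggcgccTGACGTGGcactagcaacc
Kdelr3, chr15:79516367-79516396 (+): tggccgccccgCCACGTCAccgcgcggcca
Arf1, chr11:59228228-59228257 (-): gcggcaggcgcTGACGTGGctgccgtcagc
Gbf1, chr19:46152535-46152564 (+): gaggctagttaCCACGTCAgtgagctgaca
Stx5a, chr19:8741422-8741451 (+): tggcgcagcagCCACGTCAccgagttagga
Stx5a, chr19:8741452-8741473 (+): gtacgtctaggTGACGTGGcgg

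These matches are descriptions of letters and not of binding. The 8 genes had a median log2 fold change of 0.09, and the 39 other members with a listed promoter and a retained probe set had 0.13. Of the 7 genes with a called probe set and a listed promoter, only Kdelr3 held the core, and only Gosr2 the cyclic AMP element. Kdelr3 is therefore shown at length, as the 250 bases before its start site, with the core in capitals 30 bases before the start.
Kdelr3, chr15:79516158-79516407 (+): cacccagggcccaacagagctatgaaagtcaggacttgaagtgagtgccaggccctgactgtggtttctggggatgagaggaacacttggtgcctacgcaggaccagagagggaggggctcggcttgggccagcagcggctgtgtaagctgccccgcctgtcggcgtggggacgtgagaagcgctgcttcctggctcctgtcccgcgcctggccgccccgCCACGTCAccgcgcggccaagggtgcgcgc

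Among the genes of the transcription factors themselves, 6 were retained and 0 passed (limma, 1 at an unadjusted p under 0.05). Creb3, a membrane-bound factor of the CREB family, read 1598 to 1920 in NC and 2017 to 2240.5 in HF. These do not overlap, at an adjusted p of 0.0651 over genes (limma). Xbp1 read 14432 to 15015 in NC and 14685 to 16292 in HF.

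COPI coat genes were all above 0 in log2 fold change, 9 of 9, with a median of 0.14, and 1 of 9 was called. Some of its subunits come as paralogs. Copz2 encodes ζ2, the alternative small subunit, and had the highest log2 fold change of the 53 genes by brightest probe set. Its probe set 1418455_at read 1499, 1369.7, 1533 and 1322 in NC and 2068, 2249, 1859 and 2225 in HF. No HF sample read as low as any NC sample, a 1.47-fold rise (log2 fold change 0.55, standard error 0.08, adjusted p = 0.00772). The call held when each sample was left out in turn, at log2 fold changes of 0.52 to 0.61.

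Its paralog Copz1 (ζ1) was not called. Probe set 1451825_a_at of Copz1 read 4534, 4872, 4499 and 4389.9 in NC and 4939.7, 4743, 4376 and 4634 in HF, and the diets overlapped (log2 fold change 0.03, standard error 0.06, adjusted p = 0.832). Within an array, the log2 ratio of Copz1 to Copz2 was 1.60, 1.83, 1.55 and 1.73 in NC and 1.26, 1.08, 1.23 and 1.06 in HF. The ratio fell by 0.52 (standard error 0.08) with no overlap, at an exact two-sided permutation p of 0.0286, the smallest that 4 against 4 samples allow. Adjusted over the 14 pairs of related members compared, p was 0.2, so that no pair passed.

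Arcn1 (δ-COP) rose on 1 of its 3 probe sets. Probe set 1423743_at read 2692, 2616, 2746 and 2778 in NC and 3332, 3382, 3666 and 3425 in HF. These did not overlap (log2 fold change 0.35, standard error 0.05, adjusted p = 0.00843), and the call held without any 1 sample but not on the scale of the beta cell markers (adjusted p = 0.0807). The brightest probe set of the gene, 1451089_a_at, was 0.12 higher on the log2 scale (adjusted p = 0.264), so Arcn1 is not among the 6 genes called by brightest probe set. Copb2 (β′-COP) read 9024, 8870.3, 8096 and 8351 in NC and 10136, 9320.2, 10079.9 and 9388 in HF, without overlap (1452102_at, log2 fold change 0.18, standard error 0.06, adjusted p = 0.129). Copg1 (γ1-COP) read 6969.9, 6992, 6896 and 6653 in NC and 8239, 7314, 7793 and 8067 in HF, again without overlap (1415670_at, log2 fold change 0.19, standard error 0.06, adjusted p = 0.0908). Neither passed the test over all probe sets, and among the COPI genes 5 of 9 had HF samples all above NC samples.

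COPII genes were called in 0 of 12 by brightest probe set (limma, 3 of 12 higher at an unadjusted p under 0.05), with 11 of 12 above 0 and a median of 0.12. Sar1a, a GTPase that starts COPII assembly, was called on its dimmer probe set. There, 1423720_a_at read 2744, 2752, 2770.2 and 2750.3 in NC and 3598, 3704, 3416 and 3490.1 in HF. The NC samples lay close together and all HF samples above them, a 1.29-fold rise (log2 fold change 0.37, standard error 0.05, adjusted p = 0.00494) that held without any 1 sample. The brighter probe set of Sar1a, 1415696_at, read 5323, 5752, 5222 and 5680.0 in NC and 6341, 5489.7, 6135 and 5864 in HF, and its diets overlapped (log2 fold change 0.12, standard error 0.07, adjusted p = 0.363). The 2 probe sets of this gene therefore gave different calls.

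Sar1b, the other SAR1 GTPase, read 7861, 7953, 8190.0 and 7851 in NC and 9173, 8606, 8433 and 9418 in HF. HF samples were all above NC samples, and the difference did not pass (1428163_at, log2 fold change 0.16, standard error 0.06, adjusted p = 0.141). Sec13, of the outer cage of the coat, read 2209.7, 2395, 1932 and 2185 in NC and 2629, 2461, 2790.5 and 2486 in HF, also without overlap (1416241_at, log2 fold change 0.25, standard error 0.08, adjusted p = 0.108). Sec24a, of the cargo-binding inner layer, read 1833, 1608, 1724 and 1899 in NC and 1891, 2039.8, 1927 and 2112 in HF, with HF21 below NC5 (1433934_at, log2 fold change 0.18, standard error 0.07, adjusted p = 0.198). The inner-layer pairs Sec23a with Sec23b and Sec24c with Sec24d had within-array ratios that overlapped between diets (exact permutation p of 0.8 and 0.686). For Sec24a over Sec24b the log2 ratio was 0.21 higher in HF (standard error 0.08), with HF21 within the NC range (exact permutation p = 0.0857, 0.24 adjusted over the pairs).

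Among the p24 adaptors, which help load cargo and shape vesicles, 1 of 5 retained genes was called. Tmed3 read 15369, 14628, 15094 and 14708 in NC and 18978, 17513, 16444 and 17970.4 in HF on 1416108_a_at. All HF samples were higher than all NC samples (log2 fold change 0.24, standard error 0.06, adjusted p = 0.0482), close to the threshold, and the call ended when any 1 sample other than HF23 was left out (adjusted p up to 0.116). Tmed10 read 4820.4, 4959, 4903 and 4813 in NC and 5414, 5125, 5081 and 5792 in HF, without overlap (1424707_at, log2 fold change 0.13, standard error 0.06, adjusted p = 0.235). For Tmed9 the values were 6948, 7380.2, 7199.5 and 7115 in NC and 7844, 7365, 6934 and 8212 in HF, and HF23 was the lowest of all 8 samples (1439448_x_at, log2 fold change 0.08, standard error 0.07, adjusted p = 0.536). Tmed7 was below 0 on its brightest probe set at -0.07 and above 0 on its other 3 retained ones, none of them called.

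**Figure D3:**
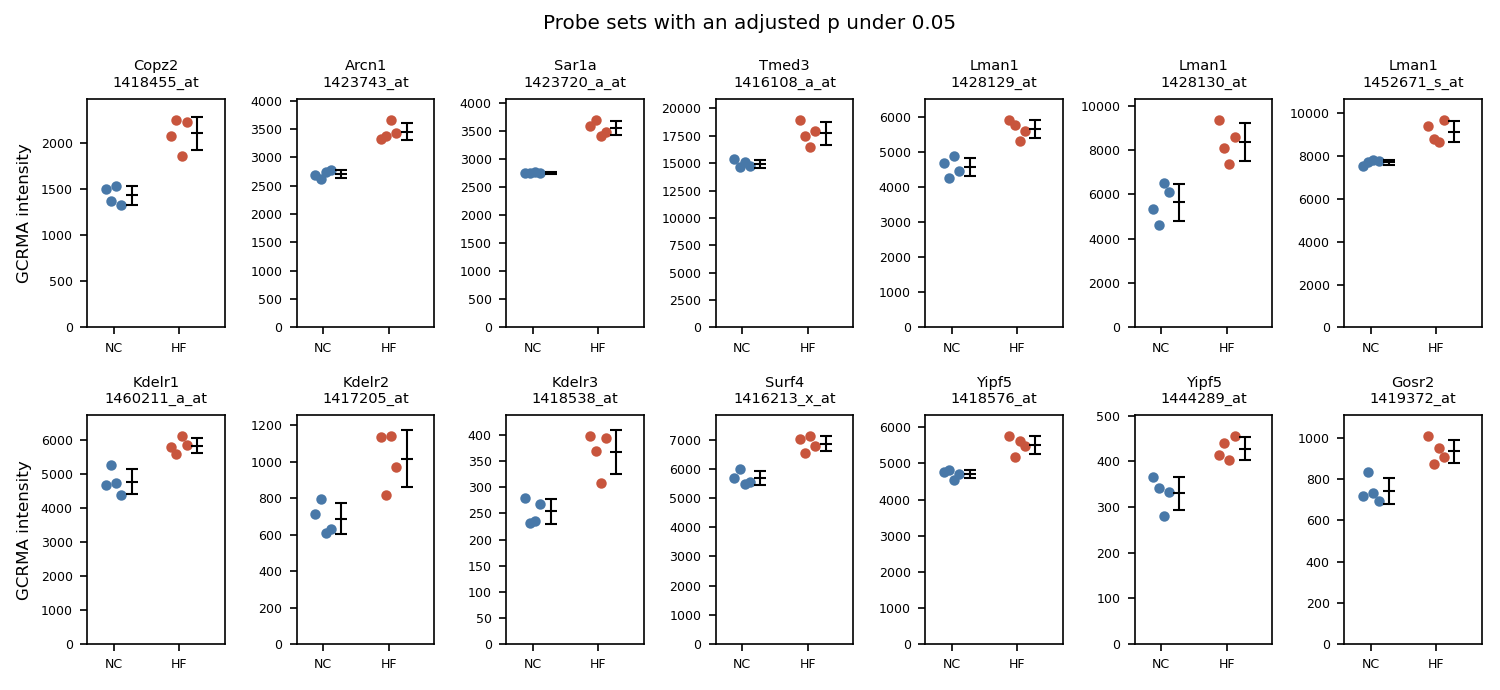
GCRMA intensity on a linear axis from 0 (y axis) of the 14 called probe sets in the 4 NC and 4 HF samples (x axis), 1 panel per probe set, with bars for the mean and SD. In each panel the 4 HF points lie above the 4 NC points, by 1.17-fold (Yipf5, 1418576_at) to 1.49-fold (Lman1, 1428130_at).

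Cargo and retrieval receptors held 7 of the 14 calls. By brightest probe set 3 of 7 genes were called, 5 of 7 had HF samples all above NC samples, and the median log2 fold change was 0.28. Lman1 encodes ERGIC-53, a lectin that carries glycoproteins out of the ER, and 3 of its 5 retained probe sets were called. The brightest, 1452671_s_at, read 7537, 7707, 7827 and 7775 in NC and 9409, 8819, 8657 and 9704 in HF. On 1428129_at the values were 4695, 4269, 4872 and 4450.1 in NC and 5918, 5766, 5300.2 and 5607 in HF. On 1428130_at they were 5358, 4620.0, 6505 and 6088 in NC and 9366, 8092, 7379 and 8593 in HF. No HF sample fell among the NC samples on any of the 3, and the log2 fold changes were 0.24, 0.31 and 0.57 (standard errors 0.06, 0.06 and 0.12, adjusted p of 0.0396, 0.0287 and 0.0295). The widest change among the members, 1.30, was on a dim Lman1 probe set, 1444037_at, that read 21.7, 46, 37.7 and 59.4 in NC and 99.1, 73.7, 149.8 and 74.5 in HF and did not pass (adjusted p = 0.0633). Its other dim probe set, 1419951_at, read 66, 75.2, 75.7 and 70.1 in NC and 74.7, 85.6, 65.8 and 125 in HF, where HF23 was the lowest of all 8 samples (log2 fold change 0.25, standard error 0.18, adjusted p = 0.491). Leaving out samples ended the Lman1 calls in most fits: that on 1452671_s_at when any 1 sample other than HF23 was left out (adjusted p up to 0.104), on 1428129_at when any 1 sample other than NC4 or HF23 was left out (adjusted p up to 0.0815) and on 1428130_at when any 1 sample other than NC4, NC5 or HF23 was left out (adjusted p up to 0.0861).

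Mcfd2, the soluble partner of ERGIC-53, was looked up after its values were seen. It read 4539, 4917, 4318 and 4543 in NC and 5559, 4965, 6438 and 5472 in HF, with no overlap, and did not pass (1424024_at, log2 fold change 0.29, standard error 0.09, adjusted p = 0.095). Lman2, a related lectin, was at -0.06 and 0.12 on its 2 probe sets, neither called.

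All 3 KDEL receptor genes had a called probe set. Kdelr1 read 4680.1, 5283, 4752 and 4398 in NC and 5795, 5599, 6126 and 5874 in HF on 1460211_a_at. The nearest samples were NC2 and HF22, and the diets did not overlap (log2 fold change 0.29, standard error 0.07, adjusted p = 0.0424). Kdelr2 read 712, 795, 607 and 633 in NC and 1139, 815, 1141 and 971 in HF on its dimmer probe set 1417205_at, with NC2 close below HF22 (log2 fold change 0.56, standard error 0.13, adjusted p = 0.0444). Its brighter probe set, 1417204_at, read 5868, 7116, 6628 and 6249 in NC and 8382, 7228, 7790.1 and 7940.4 in HF and did not pass (log2 fold change 0.28, standard error 0.08, adjusted p = 0.0748). Kdelr3, whose promoter is printed above, read 280.3, 232, 237 and 268 in NC and 398, 369.6, 308 and 395 in HF on 1418538_at. HF23 was the lowest HF sample and still above NC1, for a 1.44-fold rise (log2 fold change 0.53, standard error 0.10, adjusted p = 0.0227). Differences in response between the 3 receptors did not pass, with within-array differences of their log2 fold changes of 0.02 (standard error 0.06) for Kdelr1 minus Kdelr2, -0.24 (standard error 0.16) for Kdelr1 minus Kdelr3 and -0.25 (standard error 0.15) for Kdelr2 minus Kdelr3, with exact permutation p of 0.8286, 0.171 and 0.2 (0.8286, 0.3 and 0.311 adjusted over the 14 pairs). The calls ended for Kdelr1 when any 1 sample other than NC2 was left out (adjusted p up to 0.105), for Kdelr2 when any 1 sample other than HF22 was left out (adjusted p up to 0.114) and for Kdelr3 when any 1 sample other than NC1, NC5 or HF23 was left out (adjusted p up to 0.0705).

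Surf4, a cargo receptor for soluble secretory proteins, was discordant between its 5 probe sets. Only 1416213_x_at was called, where it read 5696, 6004, 5482 and 5558 in NC and 7007, 6548, 7115 and 6769.6 in HF (log2 fold change 0.27, standard error 0.06, adjusted p = 0.0262). That call ended when any 1 sample other than NC2 or HF22 was left out (adjusted p up to 0.0746). The brightest, 1455822_x_at, read 13987, 13097, 14573 and 15251 in NC and 13006, 14268, 13869 and 13265 in HF, and the diets overlapped (log2 fold change -0.06, standard error 0.06, adjusted p = 0.639). The other 3 were at 0.06, 0.17 and 0.0046 on the log2 scale, so no single direction can be given for this gene.

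Arf GTPases and their regulators were called on 0 of 17 probe sets and in 0 of 7 genes (limma, 1 of 7 genes at an unadjusted p under 0.05), with a median of 0.06 by gene. Arf1, which recruits the COPI coat, read 16569.9, 17395, 16549 and 16518 in NC and 17323, 17003, 17585 and 17879 in HF on its brightest probe set, with NC2 among the HF samples (1426390_a_at, log2 fold change 0.06, standard error 0.05, adjusted p = 0.55). Its other retained probe set, 1420920_a_at, was 0.19 higher without overlap (adjusted p = 0.0792). Arf3, of the same class of GTPases, read 5393, 5531, 5387 and 5431 in NC and 5220.3, 4836, 5209 and 5552 in HF (1437331_a_at, log2 fold change -0.06, standard error 0.06, adjusted p = 0.577). Dimmer 1434787_at of Arf3 was the only member probe set with HF all below NC, at 411, 408, 370.2 and 387 in NC and 366, 294, 347 and 335 in HF (log2 fold change -0.23, standard error 0.08, adjusted p = 0.129). On the scale of the beta cell markers it was called lower, at -0.36 (adjusted p = 0.0156).

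The log2 ratio of Arf1 to Arf3 was 1.62, 1.65, 1.62 and 1.60 in NC and 1.73, 1.81, 1.76 and 1.69 in HF. It was 0.12 higher in HF (standard error 0.03) without overlap, at the smallest exact permutation p of 0.0286 and 0.2 after adjustment over the 14 pairs. Scaling of whole arrays does not touch such a ratio. The 12 pairs other than this one and Copz1 with Copz2 had exact permutation p of 0.0571 to 0.8286. Arf5, of the class that also holds Arf4, read 322, 349, 274 and 279 in NC and 352, 340.4, 402 and 329.9 in HF, with overlap (1422807_at, log2 fold change 0.22, standard error 0.10, adjusted p = 0.249). Arfgap1, which switches ARF1 off, read 1239, 1224, 1129 and 1151 in NC and 1304, 1291, 1334 and 1268 in HF, without overlap (1427245_at, log2 fold change 0.13, standard error 0.05, adjusted p = 0.2). Arfgap3, of the same family, read 1793, 2065, 1535 and 1836 in NC and 2362, 1783, 2280.5 and 2129.6 in HF, with HF22 below 3 of the NC samples (1426534_a_at, log2 fold change 0.24, standard error 0.12, adjusted p = 0.282).

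**Figure D4:**
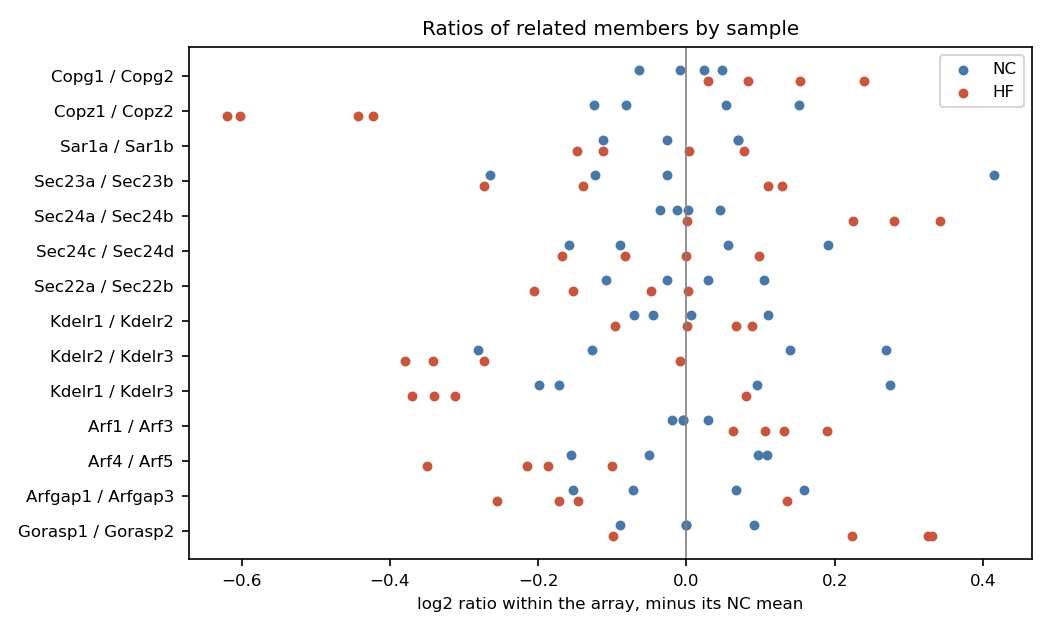
Log2 ratio of 14 pairs of related members within each array, minus the mean of the NC samples (x axis), 1 row per pair (y axis) and 1 point per sample. The HF points lie apart from the NC points for Copz1 over Copz2 and for Arf1 over Arf3.

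Tethers and Golgi matrix genes were above 0 in 7 of 8 and called in 1 of 8, with a median of 0.17. Yipf5, a Golgi membrane protein of the Yip family, mutations of which are known to cause neonatal diabetes, was called on 2 of 3 probe sets. On 1418576_at it read 4749, 4803, 4553 and 4711 in NC and 5754, 5178, 5610.0 and 5471 in HF. On 1444289_at it read 365, 343, 279 and 333 in NC and 413, 441, 402 and 455 in HF. HF samples were above NC samples on both (log2 fold change 0.23, standard error 0.05, adjusted p = 0.0464 and log2 fold change 0.38, standard error 0.09, adjusted p = 0.0459). Its remaining probe set, 1449142_a_at, was 0.22 higher without overlap and just missed the threshold (adjusted p = 0.0566). The calls ended on 1418576_at when any 1 sample other than HF22 was left out (adjusted p up to 0.116), and on 1444289_at when any 1 of the 8 samples was left out (adjusted p up to 0.122).

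Gorasp1 encodes a protein that stacks Golgi cisternae. It read 371, 434, 347 and 339 in NC and 488, 466, 432 and 476 in HF, where NC2 lay just above HF23 (1451671_at, log2 fold change 0.33, standard error 0.09, adjusted p = 0.0702). Uso1, the tether p115, read 5364, 6285, 5852 and 5904 in NC and 7163, 7119, 6159 and 6816 in HF, with HF23 below NC2 (1424274_at, log2 fold change 0.22, standard error 0.07, adjusted p = 0.129). Neither passed. Trappc4 and Trappc3, of the TRAPP tether, were at -0.07 and 0.03 and not called.

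SNARE genes, which fuse vesicles with the Golgi, were all above 0 (5 of 5, median 0.09) and called in 0 of 5 by brightest probe set (limma, 1 of 5 at an unadjusted p under 0.05). Gosr2 (membrin) was called on its dimmer probe set 1419372_at, which read 716, 835, 733 and 692 in NC and 1009, 876, 949.6 and 906 in HF. NC2 was the highest NC sample and still below HF22 (log2 fold change 0.33, standard error 0.08, adjusted p = 0.0423). The call ended when any 1 sample other than NC2 was left out (adjusted p up to 0.108), and the brightest probe set was 0.08 higher (adjusted p = 0.618). Sec22b read 4224, 4255, 3927 and 3733 in NC and 4545, 4381, 4566 and 4272 in HF, without overlap (1449063_at, log2 fold change 0.14, standard error 0.06, adjusted p = 0.238). Bet1 read 592, 556, 564 and 503 in NC and 676, 622, 590.2 and 700.2 in HF, where HF23 was below NC1 (1416867_at, log2 fold change 0.22, standard error 0.08, adjusted p = 0.141). Stx5a (syntaxin 5) read 3240.0, 3766, 3448 and 3514 in NC and 3929.8, 3294, 4008 and 3648 in HF with overlap (1449679_s_at, log2 fold change 0.09, standard error 0.08, adjusted p = 0.587), and its promoter holds the core at 2 places.

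**Figure D5:**
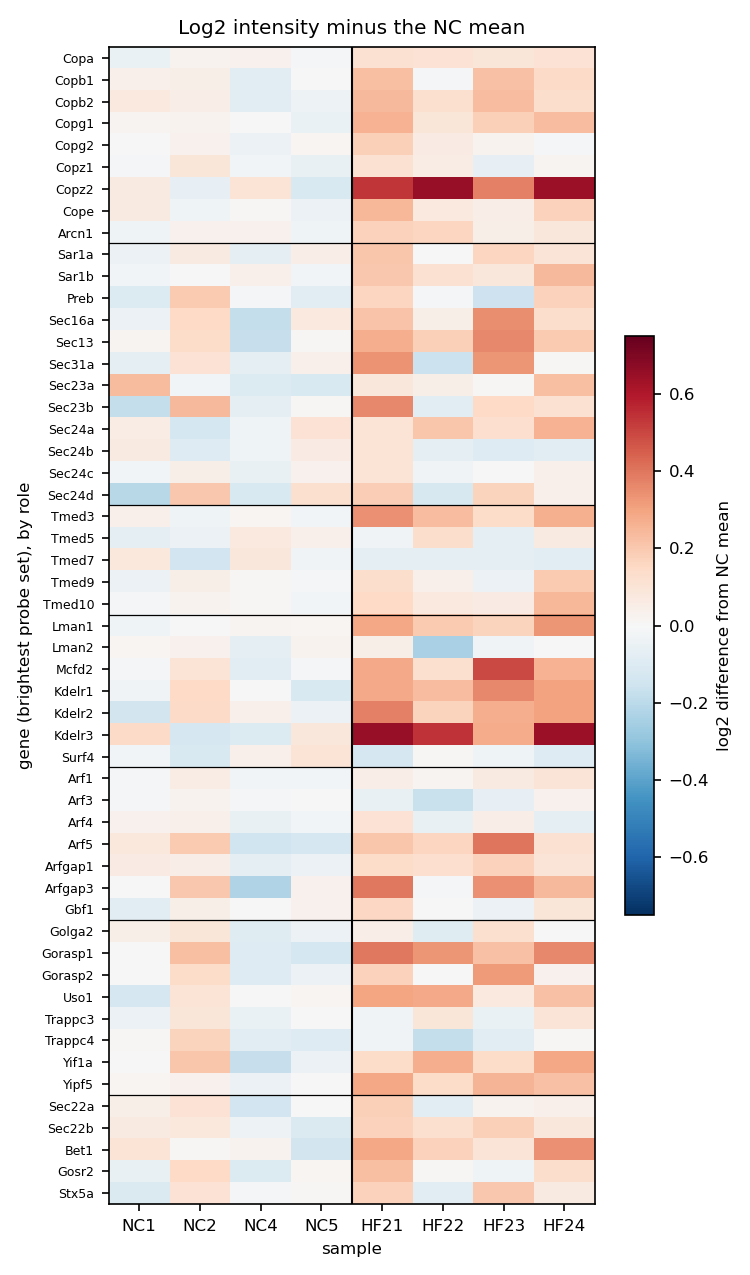
Log2 intensity minus the NC mean (colour scale, red above and blue below) of the 53 member genes by brightest probe set (rows, by role) in the 8 samples (columns). The HF columns are mostly red, with Copz2 and Kdelr3 darkest, and HF22 is the palest of them.

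Samples of 1 diet also differed over the whole set. Among the NC samples, NC2 was the highest for 37 of 53 member genes (69.8%, against 31.4% of all genes), and NC4 the lowest for 22. Among the HF samples, HF21 was the highest for 26 (49.1%, against 21.8% of all genes) and HF22 the lowest for 23 (43.4%, against 25.9%). The median log2 difference from the NC mean was 0.18 in HF21, 0.06 in HF22, 0.12 in HF23 and 0.12 in HF24, and -0.04 to 0.05 in the NC samples. NC2 thus lay near HF22 in the members as a set. The spread within a diet was of the size of the change for many members, with a median SD of 5.78% of the mean in NC and 6.08% in HF. Over all genes the median SD was larger, at 8.29% in NC and 8.76% in HF. At an equal change, samples of the 2 diets separate more easily where this spread is smaller.

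Probe sets of 1 gene did not always tell the same. Of the 31 members with at least 2 retained probe sets, 23 had all log2 fold changes above 0, 0 had all below and 8 had both signs. Among the 11 members with a called probe set, 8 also had 1 or more retained probe sets that were not called, and for Arcn1, Sar1a, Kdelr2, Surf4 and Gosr2 the called one was not the brightest. Copz2, Kdelr1 and Kdelr3 have a single retained probe set, so that their calls have no check by another one.

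Other genes of the early secretory pathway were taken from a list of 64, of which 60 were retained. Of these, 4 rose, 0 fell (limma, 3 lower at an unadjusted p under 0.05) and 56 did not pass, and 47 were above 0 with a median log2 fold change of 0.10. Over all 11924 genes, 1.92% were called higher and 6.65% lower, and 49.9% were above 0. Sec16b, which organises the ER exit sites where COPII forms, read 919, 808, 864 and 973 in NC and 1344, 1691, 1321 and 1397 in HF. It rose 1.61-fold without overlap (log2 fold change 0.69, standard error 0.10, adjusted p = 0.00448 over genes). The other 3 were Ergic2, Yif1b and Yipf6, membrane proteins of the ER to Golgi intermediate compartment and Golgi, at 0.33, 0.37 and 0.28 (adjusted p of 0.0314, 0.0301 and 0.0213 over genes). In the mean of this list the HF samples lay 0.056 to 0.14 above the NC mean, and the members 0.073 to 0.19.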

How the data were processed

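The intensities deposited by the authors came from mouse expression arrays read into ArrayAssist Lite 3.4 and summarised with GCRMA, on a linear scale with 1 value per probe set and sample. SAM, which the study used, was not run here. The values were taken to log2 without further normalization and fitted for HF against NC with lmFit and eBayes (limma 3.58.1, R 4.3.3). P-values were adjusted by Benjamini-Hochberg over the 24481 probe sets whose third-highest intensity was at least 10. This filter stands in for the present flags of the study, which were not used here. A call is an adjusted p under 0.05. A log2 fold change is mean HF minus mean NC on the log2 scale.

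Of 45101 probe sets 34958 are annotated to 1 gene. Gene values are those of the retained probe set with the highest mean, with adjustment over 11924 genes. Pairs of related members were compared with exact two-sided permutation tests. The limma script was tested on simulated data. Values in each sample are given for every member with a called probe set and, in each role, for the 3 members of smallest p, and both members of the pairs at the smallest p are named. Members and lists were chosen with earlier results of these data known. Alternatives were 2 other filters, 3 scalings, a trend with a robust prior, sample weights and a fold limit of 1.5. Others were an unpaired t-test, an offset of 16, 2 other gene representations and leaving out each sample. The paper names such a t-test in its general statistics, while its arrays were tested with SAM. No batch was given, and the number of arrays limits the precision.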

Additional observations from a re-analysis of the deposited data

Results flagged for a closer look

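Over the members named with values, 1 of 64 groups of 4 samples had a sample set apart from the rest by Dixon's ratio, where chance gives about 1 in 20. For Arf1 (1426390_a_at), NC2 read 17395, the next NC sample 16570 and the lowest 16518, a ratio of 0.939 of gap to range, above the critical value for 4 samples. The cause was not tested.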

How the results depend on the processing

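Of the member probe sets, 14 were called higher. It became 4 when arrays were brought to equal beta cell markers, 0 with a fold of at least 1.5, 9 by an unpaired t-test with adjustment, 40 by it without adjustment and 3 to 8 with 1 sample left out. Over all retained probe sets, 525 were called higher, and in the same settings 206, 168, 251, 2296 and 226 to 419. Of the member genes, 6 were called higher, and 2 when scaled on beta cell markers, 0 with the fold limit, 23 by the t-test without adjustment, 13 by the probe set of smallest p, which favours calls by its construction, and 1 to 4 with 1 sample left out. Over all 11924 genes, 229 were called higher, and 61 of them were at least 1.5-fold higher. In the other settings all genes were not counted here, so those member gene counts cannot be set against a background share. By limma at an unadjusted p under 0.05, 18 of 53 member genes and 1019 of all genes were higher. Member calls lower numbered 0, and 1 probe set when scaled on beta cell markers or by the t-test without adjustment. Other filters, scalings and priors stayed within 1.5 times. On the scale of beta cell markers 28 of 53 member genes were above 0, against 47, and of the members given with values in each sample, directions reversed for Copz1 (-0.10), Tmed9 (-0.048), Arf1 (-0.071) and Stx5a (-0.040), none of them called, and the mean of all probe sets of Surf4 was 0.089 where its brightest was -0.06. Members exceeded all genes in median log2 fold change by 0.10 (without HF21) to 0.17 (probe set of smallest p) in every setting. Shifting whole arrays, another test or a fold limit cannot change this difference. Of 14 calls, Copz2 and Sar1a were kept in 17 of 17 settings other than the fold limit, which kept 0, and the t-test without adjustment, Arcn1 in 16 and the others in 6 to 11. Values of single members and differences of pairs were counted together over the settings, and 604 were unchanged. For a single member, unchanged means the same side of the threshold, and for a pair, a shift smaller than the pooled SD of its ratio. Of the single members' values, 95 with an unchanged direction fell short of the threshold and 6 newly passed it, and 3 pair differences moved by more. No paired analysis was possible because the diets share no replicate number. Dim probe sets are limited by signal over background, and Tmed2 was not measured here for that reason.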

Other observations

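The annotation lists 10 more probe sets for a member together with another gene, and these were left out of all counts. All 10 were retained, of which 2 were called higher and 0 lower in HF. Over all retained probe sets, 2.14% were called higher and 4.39% lower. Since each of the 10 is also annotated to another gene, these calls cannot be assigned to the member.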
